A study of Mus musculus with 24 samples.

Results

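The cell-matrix adhesion genes of basement membranes were described here: the integrins, the laminins, the nidogens and dystroglycan. They were chosen by symbol from the deposited expression tables, taking every integrin alpha chain (Itga1 to Itgax) and beta chain (Itgb1 to Itgb8), every laminin alpha, beta and gamma chain, Nid1, Nid2 and Dag1, with the transcripts of a symbol summed. The rule gave 40 of 25385 genes, namely 18 integrin alpha chains, 8 integrin beta chains, 5 laminin alpha, 3 laminin beta and 3 laminin gamma chains, 2 nidogens and dystroglycan.

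The study profiled, by RNA-seq, mouse mesenchymal stem cells grown from bone marrow (mdMSC), stromal cells that can be turned into bone-forming or fat cells. Its 24 libraries form 8 groups of 3: 4 differentiation states, each with VD3 and with vehicle. VD3 stands for 1,25(OH)2D3, the hormonal form of vitamin D, given at 100 nM for 24 h, and the vehicle was ethanol. Adipogenic day 7 cells had received insulin, indomethacin and dexamethasone, osteogenic day 7 and day 15 cells had received β-glycerophosphate and ascorbic acid, and day 0 cells had received no differentiation medium. Cells of all 8 groups had been frozen, passaged a limited number of times in MEMα with fetal bovine serum and grown to confluency before differentiation. The labels do not say that the 3 libraries of a group came from separate cultures, so p-values measure the spread between these libraries, which may be technical.

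Integrins are receptors made of 1 alpha and 1 beta chain that span the cell membrane and hold the cell to the matrix around it. The alpha chain largely decides what is bound: α3, α6 and α7 bind laminins, α5, α8 and αv bind proteins that carry the RGD peptide such as fibronectin and osteopontin, and α1, α2, α10 and α11 bind collagens. Laminins are trimers of 1 alpha, 1 beta and 1 gamma chain that build the sheet of the basement membrane, nidogens link that sheet to type IV collagen, and dystroglycan is a laminin receptor outside the integrin family. Fat cells are each wrapped in a basement membrane, while bone-forming cells sit in a matrix of fibrillar collagen rich in RGD proteins.

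Levels are RPKM, read numbers scaled to transcript length and to the reads mapped in the library, which allow genes to be compared per length. Each library held an estimated 7.12 to 46.3 M reads, judged by the steps between its lowest values, so that 3 reads on a transcript of 1 kb correspond to 0.0648 to 0.421 RPKM. Of the 6 day 0 libraries, 5 stood apart, all except VD3 replicate 2: the median level of olfactory, vomeronasal and taste receptor genes was 3.39 to 4.94 RPKM in these 5 libraries and 0.208 to 1.30 RPKM in the other 19, with 0.457 RPKM in day 0 VD3 replicate 2. This level is called the background below. In day 0 vehicle cells it averaged 4.21 ± 0.72 RPKM (SD, n = 3), and 26 of the 40 genes had a day 0 vehicle mean under it, so calls against day 0 were also made after subtraction of each library's background, and the numbers that held are given. The marker sums of adipogenic and osteogenic day 15 cells followed their labels. Adipocyte markers summed to 30777 to 32892 RPKM in adipogenic vehicle libraries and to 47.7 to 49.0 RPKM in osteogenic day 15 vehicle libraries. Osteoblast markers summed to 680.1 to 757.6 RPKM in these osteogenic libraries and to 124 to 146 RPKM in adipogenic vehicle libraries. A single marker, the bone sialoprotein gene Ibsp, made up most of both sums. It averaged 596.4 RPKM in osteogenic day 15 and 104.3 RPKM in adipogenic vehicle cells. In day 0 vehicle libraries adipocyte markers summed to 393.9 to 447.1 RPKM and marrow stromal markers to 369.4 to 403.0 RPKM. Osteoblast markers summed there to 31.3 to 39.0 RPKM.

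Of the 40 genes, 17 reached a mean of at least 5 RPKM in some group, 18 peaked between 1 and 5 RPKM and 5 stayed under 1 RPKM in every group. The test across all genes covered 34 of them, those with at least 1 RPKM in 3 or more libraries. The remaining 6, Itga2, Itga2b, Itgal, Itgam, Itgb4 and Lamc3, did not pass this filter, and their highest single library was Itga2 with 2.13 RPKM in day 0 vehicle replicate 3. Of the filtered genes, the leukocyte-type chains Itgad and Itgax passed only through adipogenic libraries. The β1 chain Itgb1, the partner of most alpha chains, was the most abundant member in all 8 groups, with means between 294 RPKM in adipogenic vehicle cells and 750.4 RPKM in osteogenic day 7 vehicle cells.

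**Figure D1:**
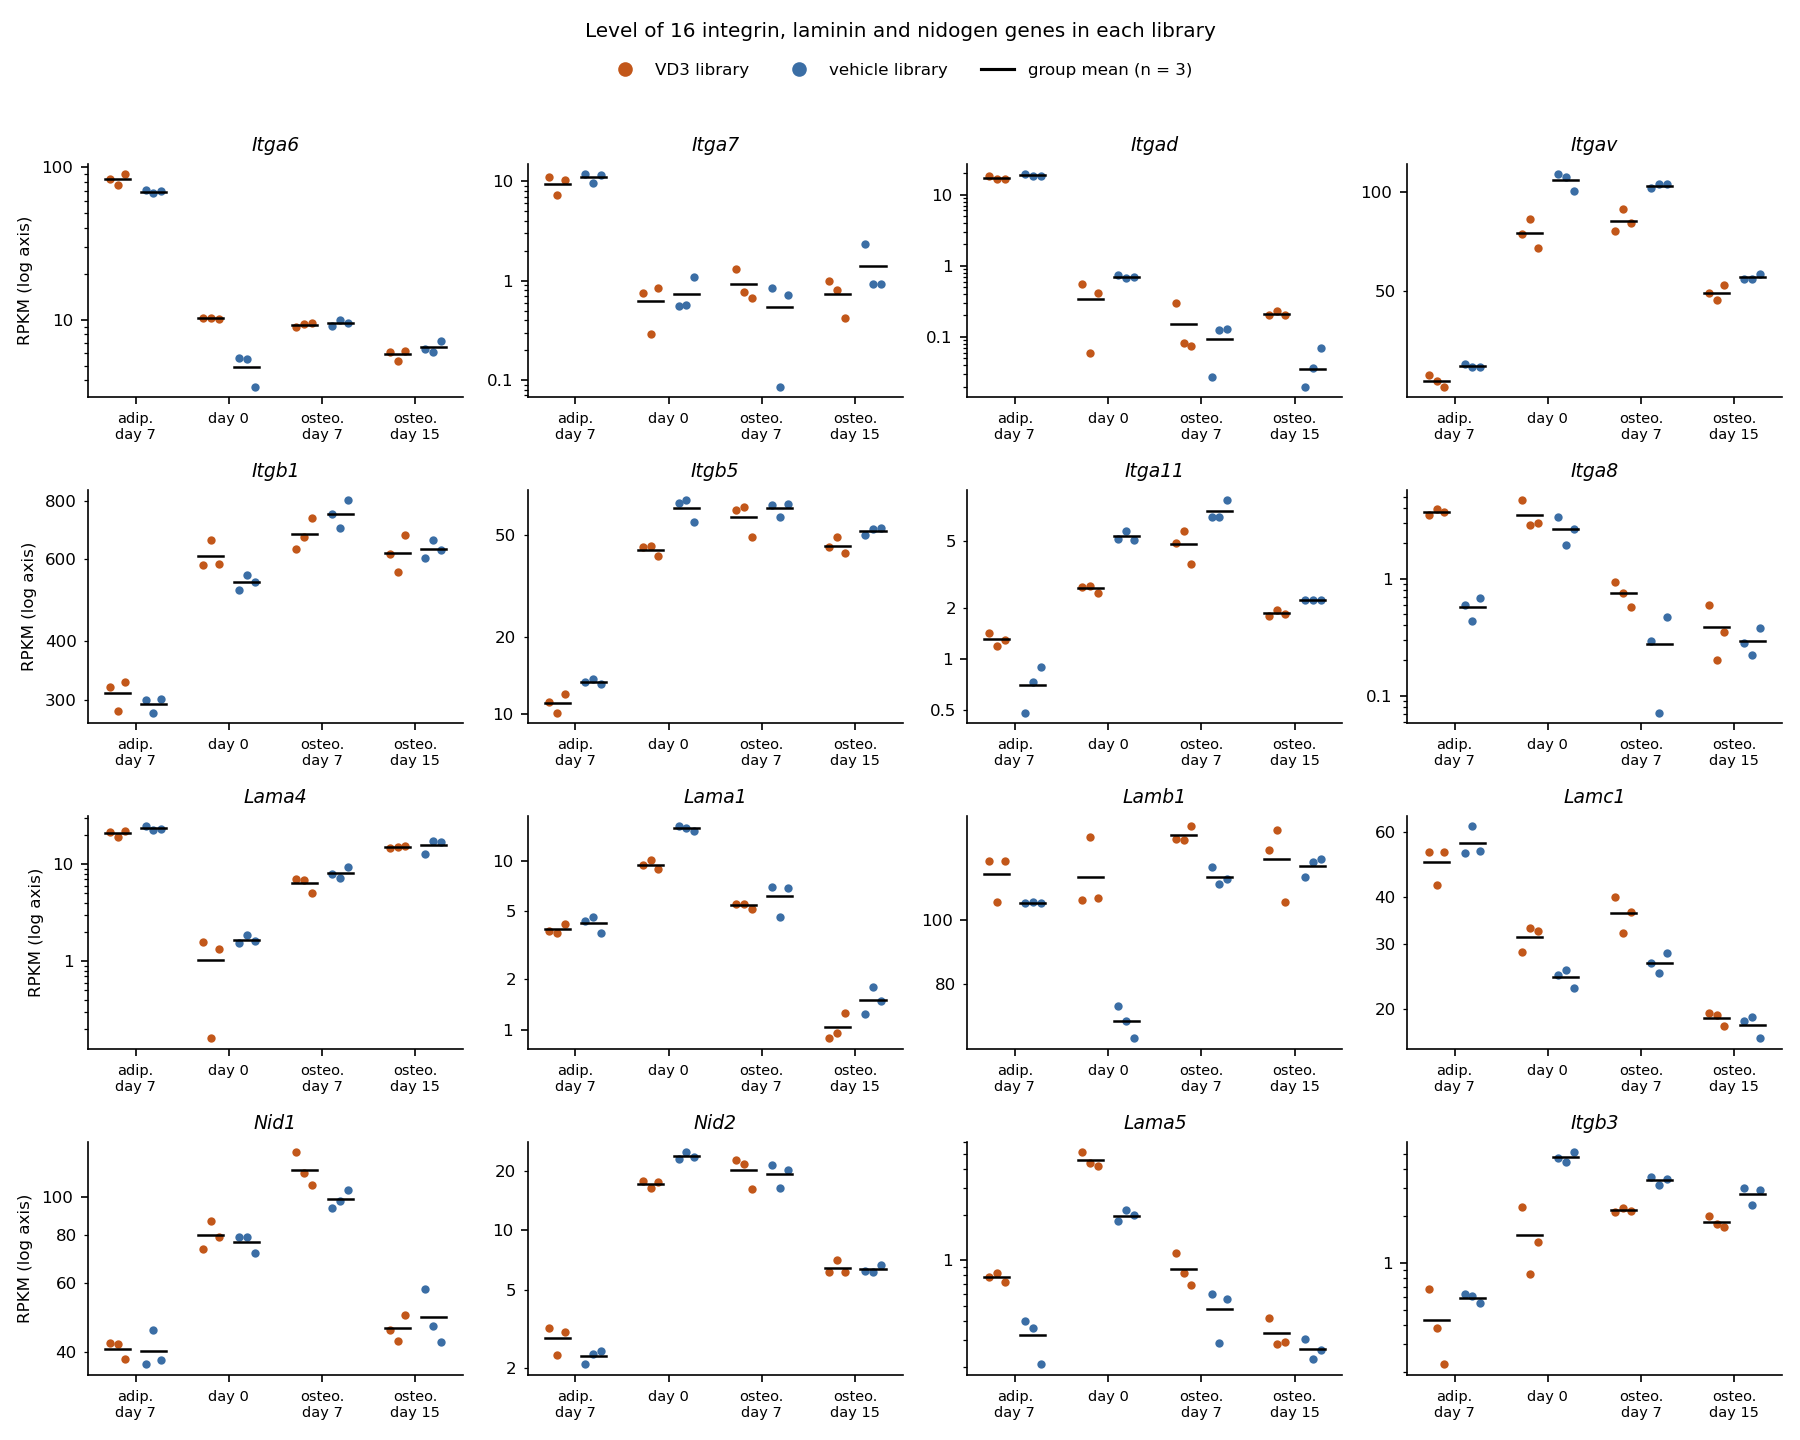
RPKM (log axis) of 16 members in every library, with the 8 groups side by side; orange points are VD3 libraries, blue points vehicle libraries and lines the group means of 3 libraries. Itga6, Itga7, Itgad and Lama4 were highest in the adipogenic groups, while Itgav, Itgb5, Nid2 and Itga11 were lowest there; the library of Itgad at 0 RPKM, osteogenic day 15 vehicle replicate 1, is drawn at 0.02 RPKM.

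Promoters are printed for 4 integrin chains whose transcripts differed between VD3 and vehicle cells in at least 1 state (below). The 4 were picked from the members called with VD3 by no fixed rule. Other called members, among them Itgb8 and Lamb3, held a hexamer in their windows and are not printed. Each is the RefSeq window on mouse assembly GRCm38.p6 that runs from 250 bases before to 50 bases after the annotated start, 5′ to 3′ on the strand of the gene. Capitals mark exact matches, on either strand, to the half-site hexamers that the vitamin D receptor can bind (the form AGGTCA, the form AGTTCA, the form GGGTCA and the form GGTTCA), or to the GC box GGGCGG bound by Sp-family factors.
Itgav, chr2:83724147-83724446, plus strand: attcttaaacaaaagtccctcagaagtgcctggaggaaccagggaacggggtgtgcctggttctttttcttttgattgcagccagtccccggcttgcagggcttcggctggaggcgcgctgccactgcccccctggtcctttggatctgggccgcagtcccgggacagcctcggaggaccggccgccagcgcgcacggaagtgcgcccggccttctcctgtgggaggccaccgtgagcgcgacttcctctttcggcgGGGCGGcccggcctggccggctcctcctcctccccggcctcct
Itgb5, chr16:33829415-33829714, plus strand: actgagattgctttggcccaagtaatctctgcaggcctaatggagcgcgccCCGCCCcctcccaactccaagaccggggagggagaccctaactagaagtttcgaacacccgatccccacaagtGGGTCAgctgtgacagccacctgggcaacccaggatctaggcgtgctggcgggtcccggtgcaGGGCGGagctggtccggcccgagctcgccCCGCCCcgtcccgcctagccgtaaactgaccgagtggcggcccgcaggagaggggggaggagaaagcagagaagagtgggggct
Itga11, chr9:62677605-62677904, plus strand: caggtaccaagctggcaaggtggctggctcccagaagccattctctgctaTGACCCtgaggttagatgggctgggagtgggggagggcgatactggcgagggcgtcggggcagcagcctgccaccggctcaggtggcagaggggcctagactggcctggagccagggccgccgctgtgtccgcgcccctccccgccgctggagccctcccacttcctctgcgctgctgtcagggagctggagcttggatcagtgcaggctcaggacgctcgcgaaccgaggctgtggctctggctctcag
Itga8, chr2:12301895-12302194, minus strand: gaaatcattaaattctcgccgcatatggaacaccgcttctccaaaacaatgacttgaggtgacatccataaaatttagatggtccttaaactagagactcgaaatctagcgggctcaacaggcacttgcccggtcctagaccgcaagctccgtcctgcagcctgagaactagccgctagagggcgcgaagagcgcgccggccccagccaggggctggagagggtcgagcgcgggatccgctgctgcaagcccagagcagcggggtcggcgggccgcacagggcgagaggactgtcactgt
The Itgb5 window held 1 hexamer, GGGTCA at base -126 from the start on the gene's strand, and 3 GC boxes. In the Itga11 window 1 hexamer, GGGTCA at -200 on the opposite strand, was found and no GC box. The Itgav window held 1 GC box, at base 8 after the start, and no hexamer, and the Itga8 window held neither. RefSeq promoters were found for 25 of the 40 members, of which 9 held at least 1 of the hexamers and 13 a GC box. Among all 32851 windows in the table, 43.7% held a hexamer and 35.7% a GC box. A match describes these letters and is not shown to be a site.

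Adipogenic day 7 and osteogenic day 7 cells, both given vehicle, carried different alpha chains: in adipogenic cells the laminin-binding chains Itga6 and Itga7 and the αD chain Itgad were high, and the RGD-binding chain Itgav and the collagen-binding chain Itga11 were low. Among 34 tested members, 9 rose and 14 fell (adjusted p below 0.05), while 37.8% of all 21097 genes tested passed in this comparison, 12.4% higher and 25.4% lower. The median log2 difference of the members was -0.12, beside 0.02 over all genes. Log2 differences are on the log2(RPKM + 1) scale, which understates the change of low genes, and each is given with its standard error.

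Itga6 had 71.2, 67.3 and 69.4 RPKM in the adipogenic vehicle libraries, against 9.12, 9.89 and 9.47 RPKM in the osteogenic day 7 vehicle libraries. The groups lay far apart, with a log2 difference of 2.74 ± 0.11 and an adjusted p of 1.02e-15. Itga7, whose protein is the main laminin-binding alpha chain of muscle, had 11.7, 9.56 and 11.6 RPKM in adipogenic cells, against 0.842, 0.086 and 0.719 RPKM in osteogenic cells. Each adipogenic library exceeded every osteogenic library, and the log2 difference was 2.98 ± 0.25 (adjusted p = 7.50e-10). Together with Itga3, the laminin-binding chains summed to 82.3 ± 3.4 RPKM in adipogenic cells and to 11.9 ± 0.45 RPKM in osteogenic cells (SD, n = 3 each), which is 57.9% and 8.68% of all alpha chain RPKM. Itga3 itself, the laminin-binding chain of epithelia, averaged 2.05 RPKM in adipogenic cells and 1.83 RPKM in osteogenic cells and was not called.

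Itgad, the αD chain known from leukocytes, where it pairs with β2, had 19.3, 18.3 and 18.2 RPKM in adipogenic vehicle cells, against 0.027, 0.126 and 0.130 RPKM in osteogenic day 7 vehicle cells. The osteogenic libraries lay near the value of a few reads, and the log2 difference was 4.16 ± 0.16. Itgad and Itgax passed the filter only through adipogenic libraries, so their rise there was partly fixed by the filter. Their differences from other states are therefore a description, and no p-value is given. The symbol has 2 transcripts in the tables, and the whole signal in adipogenic vehicle cells stood on 1 of them, with 18.6 RPKM on average against 0 RPKM on the other. Its β2 partner Itgb2 averaged 0.247 RPKM in adipogenic cells and 1.66 RPKM in osteogenic cells, a fall of 1.09 on the log2 scale. Itgax, the αX chain of dendritic cells and macrophages and in RefSeq order close to Itgad on chromosome 7, averaged 1.59 RPKM in adipogenic cells and 0.0997 RPKM in osteogenic cells (log2 difference 1.24). Leukocyte markers summed to 4.97 to 7.55 RPKM in the adipogenic libraries and 1.62 to 4.17 RPKM in the osteogenic ones. Of these 12 markers, 2 averaged at least 1 RPKM in adipogenic cells, Lyz2 with 2.92 RPKM and Cd68 with 1.54 RPKM. None of the 12 averaged that much in osteogenic day 7 cells, and none was at 0 in every library of either group. The pan-leukocyte gene Ptprc averaged 0.394 RPKM in adipogenic cells and 0.291 RPKM in osteogenic cells. The level of Itgad alone exceeded the sum of the 12 markers in every adipogenic vehicle library, and which cells carried it was not tested. Reads shared with near-identical integrin paralogs cannot be told apart in these tables.

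The RGD-binding chains Itgav and Itga5 fell. Itgav had 30.1, 29.4 and 29.5 RPKM in adipogenic vehicle cells, against 102.8, 105.6 and 105.7 RPKM in osteogenic day 7 vehicle cells, with no overlap (log2 difference -1.79 ± 0.08, adjusted p = 6.73e-15). The fibronectin receptor chain Itga5 averaged 1.36 RPKM in adipogenic cells and 5.66 RPKM in osteogenic cells, a fall of 1.51 on the log2 scale. Summed with Itga8, the RGD-binding chains came to 31.6 ± 0.23 RPKM in adipogenic cells and 110.7 ± 1.27 RPKM in osteogenic cells (SD, n = 3 each), or 22.2% and 80.9% of alpha chain RPKM. Total alpha chain RPKM was similar, with 142.0 ± 4.1 in adipogenic cells and 136.7 ± 2.7 in osteogenic cells. Itga6 made up 48.8% ± 0.49 of it in adipogenic cells and 6.94% ± 0.28 in osteogenic cells, while Itgav made up 20.9% ± 0.45 in adipogenic cells and 76.6% ± 0.97 in osteogenic cells. Grouping by ligand was chosen with these results known and is a description.

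**Figure D2:**
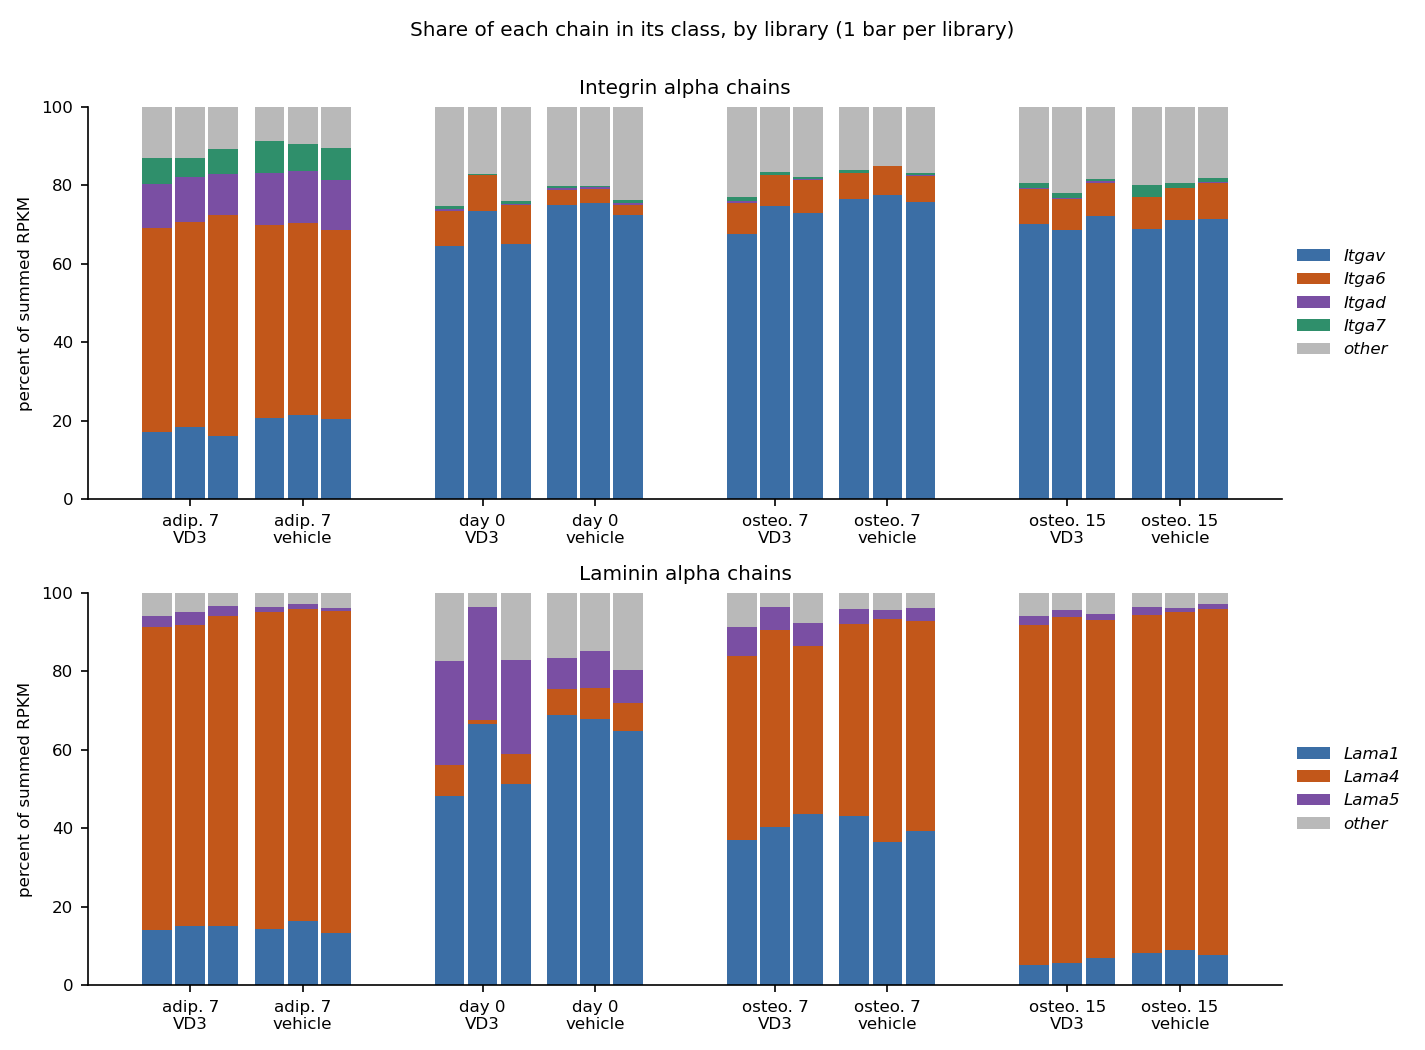
Percent of summed integrin alpha chain RPKM (upper panel) and of summed laminin alpha chain RPKM (lower panel) taken by single genes, 1 stacked bar for each of the 24 libraries. Itga6 was the largest alpha chain share in the adipogenic libraries and Itgav in all others, while Lama4 was the largest laminin alpha share in adipogenic and osteogenic day 15 libraries and Lama1 in day 0 libraries.

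Collagen-binding chains split. Itga11, the chain that binds fibrillar collagen in stromal cells, had 0.481, 0.724 and 0.889 RPKM in adipogenic vehicle cells, against 6.92, 6.89 and 8.65 RPKM in osteogenic day 7 vehicle cells. The adipogenic libraries were all below 1 RPKM and the log2 difference was -2.32 ± 0.14 (adjusted p = 2.26e-12). Itga10, known from cartilage, also fell, by 0.65 on the log2 scale, whereas Itga1, a receptor for type IV collagen among others, rose by 0.58, with 4.18 RPKM in adipogenic cells and 2.45 RPKM in osteogenic cells. Itga9, a chain that binds tenascin and osteopontin, fell by 0.54. The call of Itga1 was lost after background subtraction (0.51, adjusted p = 0.152), and that of Itga9 with median-ratio rescaling (-0.46, adjusted p = 0.0549). The leukocyte chains Itga4 and Itgae and the RGD chain Itga8 averaged at most 0.729 RPKM in either group and were not called.

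No beta chain rose and 5 of the 7 tested fell, beside 12.4% of all genes higher and 25.4% lower. Itgb5, which pairs with αv to bind vitronectin, had 13.3, 13.7 and 13.1 RPKM in adipogenic vehicle cells, against 65.7, 58.7 and 66.2 RPKM in osteogenic day 7 vehicle cells. Every adipogenic library lay below every osteogenic library (log2 difference -2.17 ± 0.10, adjusted p = 1.39e-14). The αv partners Itgb8 and Itgb3 were low in both states. Itgb8 averaged 0.529 RPKM in adipogenic cells and 4.69 RPKM in osteogenic cells (log2 difference -1.89). Itgb3 averaged 0.598 and 3.39 RPKM in the same groups (log2 difference -1.46). Itgb1 was at 294 ± 10.8 RPKM in adipogenic cells and 750.4 ± 50.6 RPKM in osteogenic cells (log2 difference -1.35 ± 0.08, adjusted p = 5.46e-12). Beta chains other than β1 made up 5.04% of beta chain RPKM in adipogenic cells and 9.01% in osteogenic cells.

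**Figure D3:**
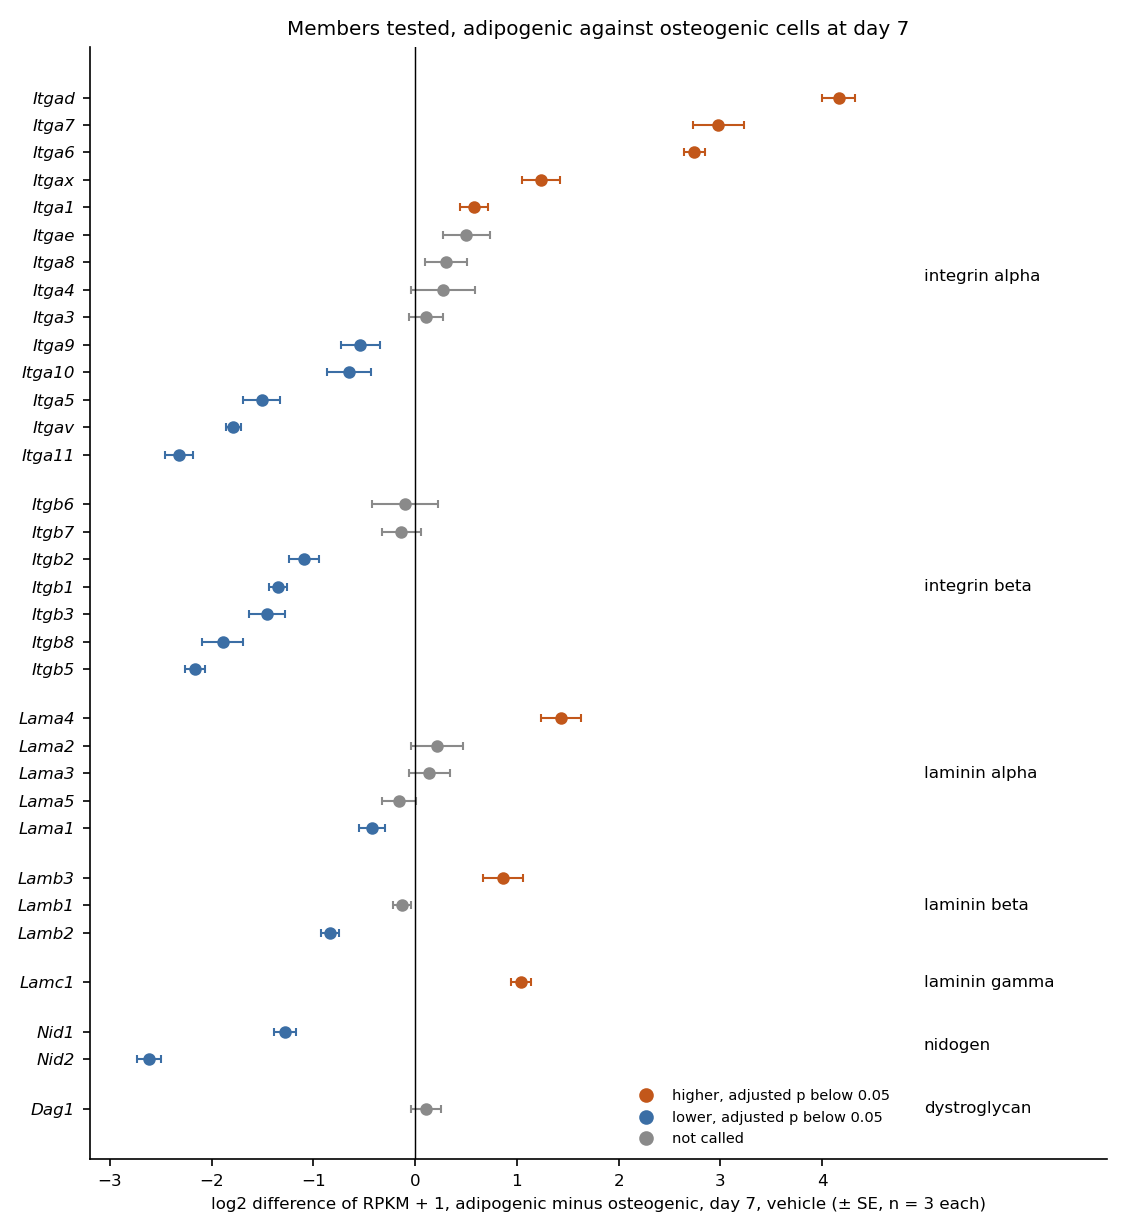
Log2 difference between adipogenic day 7 and osteogenic day 7 vehicle cells for 33 of the 34 tested members on the log2(RPKM + 1) scale, with bars of 1 standard error and called members coloured. Itgad, Itga7 and Itga6 had the largest positive values and Nid2, Itga11 and Itgb5 the most negative ones.

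Among laminins, Lama4, the alpha chain of laminins around fat cells, vessels and nerves, rose: it had 24.7, 22.7 and 23.4 RPKM in adipogenic vehicle cells, against 7.88, 7.22 and 9.38 RPKM in osteogenic day 7 vehicle cells (log2 difference 1.43 ± 0.20, adjusted p = 2.19e-06). Lama1, the alpha chain of early embryonic basement membranes, fell by 0.43, with 4.27 RPKM in adipogenic cells and 6.15 RPKM in osteogenic cells. This call of Lama1 was lost with median-ratio rescaling (-0.26, adjusted p = 0.230) and with quantile normalization (-0.12, adjusted p = 0.548). Lama4 took 80.9% ± 1.4 of laminin alpha chain RPKM in adipogenic cells and 53.1% ± 4.0 in osteogenic cells (SD, n = 3 each). The gamma chain Lamc1, part of most laminins, rose, with 56.0 ± 5.2 RPKM in adipogenic cells and 26.7 ± 1.7 RPKM in osteogenic cells (log2 difference 1.04). Of the beta chains, Lamb1 was close in both states, with 106.3 RPKM in adipogenic cells and 116.4 RPKM in osteogenic cells, and was not called. Lamb2, which replaces Lamb1 at synapses and in the kidney filter, fell by 0.84, and the low epithelial chain Lamb3 rose by 0.86. The muscle chain Lama2 and the epithelial and general chains Lama3 and Lama5 averaged under 1 RPKM in both groups and were not called.

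Both nidogens fell. Nid2 had 2.10, 2.36 and 2.44 RPKM in adipogenic vehicle cells, against 21.3, 16.4 and 20.3 RPKM in osteogenic day 7 vehicle cells. All adipogenic libraries lay below all osteogenic ones (log2 difference -2.62 ± 0.12, adjusted p = 1.53e-14). Nid1 averaged 40.3 RPKM in adipogenic cells and 98.7 RPKM in osteogenic cells, a fall of 1.28 on the log2 scale, and made up 94.6% of nidogen RPKM in adipogenic cells and 83.6% in osteogenic cells. Dag1 had 8.12, 14.2 and 8.97 RPKM in adipogenic vehicle cells, against 8.70, 8.98 and 10.5 RPKM in osteogenic day 7 vehicle cells. These groups overlapped and Dag1 was not called.

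Other genes around the same adhesion sites were counted from 4 lists, which were chosen with earlier results of these data known. In this comparison 12.4% of all genes tested were higher and 25.4% lower in adipogenic cells. Of the secreted integrin ligands, 21 of 23 tested fell and 1 rose, with the bone matrix protein Dmp1 at 1.82 RPKM in adipogenic cells and 177.8 RPKM in osteogenic cells, the microfibril protein Fbn1 at 4.98 and 170.0 RPKM, and the collagen chain Col6a3 higher at 334.8 and 187.7 RPKM. In the cytoplasmic integrin adhesion complex 18 of 28 fell and 3 rose: the actin crosslinker Actn1 averaged 10.9 RPKM in adipogenic cells and 62.7 RPKM in osteogenic cells, and Tns1, a tensin that ties integrins to actin, averaged 22.9 and 4.53 RPKM. Basement membrane partners were divided, 6 of 18 higher and 8 lower, led by the laminin-α4-binding receptor Mcam with 37.8 RPKM in adipogenic cells and 1.03 RPKM in osteogenic cells, and by the calcium-binding matrix protein Smoc2 with 1.29 and 17.7 RPKM. In the dystrophin-glycoprotein complex, which anchors dystroglycan, 3 of 19 rose and 7 fell, with the syntrophin Sntb1 at 31.2 RPKM in adipogenic cells and 2.47 RPKM in osteogenic cells and the sarcoglycan Sgcd at 36.8 and 4.58 RPKM.

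Muscle cells, endothelium and Schwann cells also use these chains. Muscle markers summed to 98.7 to 105 RPKM in adipogenic vehicle cells and 1046 to 1149.9 RPKM in osteogenic day 7 vehicle cells, endothelial markers to 1.38 to 2.05 and 3.77 to 4.10 RPKM, and Schwann cell markers to 22.9 to 25.3 and 24.6 to 28.6 RPKM. At least 1 RPKM on average was reached in adipogenic vehicle cells by 5 of 7 muscle, 0 of 9 endothelial and 1 of 4 Schwann cell markers, against 4, 1 and 1 in osteogenic day 7 vehicle cells, and no marker of these 3 lists was at 0 in every library of either group. Bulk RNA was measured, so fewer cells of a type and less RNA per cell cannot be told apart. Called the same way under median-ratio rescaling, quantile normalization and background subtraction were 7 of the 9 higher and 12 of the 14 lower members, and none turned. Itgad and Itgax, whose rise was partly fixed by the filter, are counted among the 9 and the 7 higher members. Itga1, Lamb3, Itga9 and Lama1 did not hold throughout, and Lamb3 and Itga9 were not tested after background subtraction.

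In osteogenic cultures given vehicle, Lama1, both nidogens, Itgav and Itga11 were lower on day 15 than on day 7, and Lama4 was higher. Of 34 tested members 9 fell and 1 rose, while 13.3% of all genes passed, 6.87% higher and 6.47% lower. The median log2 difference was -0.12 over the members and 0 over all genes. In all 3 rescalings 6 of the 9 lower members and Lama4 stayed called, and Itga1, Itga6 and Lamb2 did not. Lama1 had 1.24, 1.80 and 1.47 RPKM on day 15, against 6.96, 4.64 and 6.87 RPKM on day 7. It was lower in every day 15 library (log2 difference -1.50 ± 0.13, adjusted p = 2.40e-08). Lama4 rose, to 12.8, 17.5 and 17.1 RPKM on day 15, against 7.88, 7.22 and 9.38 RPKM on day 7 (log2 difference 0.87 ± 0.20, adjusted p = 0.00371). The adjusted p of Lama4 was 0.170 with a pseudocount of 0.1 in place of 1. The laminin alpha chains therefore changed in share while their sum was 18.2 RPKM on day 15 and 15.4 RPKM on day 7: Lama4 took 86.9% ± 1.3 on day 15 and 53.1% ± 4.0 on day 7, and Lama1 took 8.24% ± 0.63 on day 15 and 39.7% ± 3.4 on day 7 (SD, n = 3 each).

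Nid2 had 6.23, 6.18 and 6.66 RPKM on day 15, against 21.3, 16.4 and 20.3 RPKM on day 7 (log2 difference -1.46 ± 0.12, adjusted p = 1.16e-08). Nid1 had 58.2, 46.7 and 42.3 RPKM on day 15, against 94.0, 97.7 and 104.5 RPKM on day 7 (log2 difference -1.01 ± 0.11, adjusted p = 6.24e-07). For both nidogens every day 15 library lay below every day 7 library. Itgav had 54.6, 54.4 and 56.5 RPKM on day 15, against 102.8, 105.6 and 105.7 RPKM on day 7 (log2 difference -0.91 ± 0.08, adjusted p = 2.12e-08). Itga11 had 2.22, 2.21 and 2.24 RPKM on day 15, against 6.92, 6.89 and 8.65 RPKM on day 7 (log2 difference -1.39 ± 0.14, adjusted p = 2.47e-07). Neither alpha chain overlapped between the days, and the receptors Itga1 (log2 difference -0.70) and Itga6 (-0.47) and the laminin chains Lamc1 (-0.53) and Lamb2 (-0.41) fell as well. Itgb1, at 630.3 ± 28.2 RPKM on day 15 and 750.4 ± 50.6 RPKM on day 7, and Itgb5, at 52.0 ± 1.80 and 63.5 ± 4.22 RPKM, were not called.

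The partners of these genes moved in the same days, when 6.87% of all genes tested were higher and 6.47% lower on day 15. Of the basement membrane partners, 7 of 18 fell and none rose, with the type IV collagen chain Col4a1 at 22.5 RPKM on day 15 and 84.7 RPKM on day 7 and Col4a2 at 17.3 and 62.1 RPKM. Secreted ligands included 18 that fell and 3 that rose of 23: the bone sialoprotein gene Ibsp averaged 596.4 RPKM on day 15 and 263.9 RPKM on day 7, periostin (Postn) averaged 266.3 and 118.4 RPKM, and Dmp1 averaged 41.1 and 177.8 RPKM. In the adhesion complex 9 of 28 fell and 2 rose, with the kinase Fyn at 13.4 RPKM on day 15 and 6.22 RPKM on day 7. In the dystrophin-glycoprotein complex 1 of 19 rose and 1 fell. Osteoblast markers summed to 680.1 to 757.6 RPKM on day 15 and 547.9 to 571.8 RPKM on day 7, and endothelial markers, of which 1 of 9 averaged at least 1 RPKM on either day, to 12.4 to 14.7 RPKM on day 15 and 3.77 to 4.10 RPKM on day 7. Ibsp and Dmp1, whose levels are given above, are among the osteoblast markers, and Ibsp made up most of the day 15 sum. The higher sum on day 15 therefore does not show that the other markers rose. The part of osteoblasts or endothelial cells in these results was not tested.

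Set against day 0 vehicle cells, more than 20 of the 34 tested members were called in every state, and so were most of all genes. In adipogenic day 7 cells 8 members rose and 23 fell of 34 (78.6% of all genes passed, 13.2% higher and 65.5% lower). In osteogenic day 7 cells 7 rose and 15 fell (64.0% of all genes, 13.6% higher and 50.4% lower), and in osteogenic day 15 cells 5 rose and 24 fell (70.9% of all genes, 17.5% higher and 53.4% lower). The 3 comparisons share the day 0 libraries. Members called the same way under median-ratio rescaling, quantile normalization and background subtraction were 8 of 8 higher and 5 of 23 lower in adipogenic cells, 6 of 7 higher and 1 of 15 lower in osteogenic day 7 cells, and 4 of 5 higher and 3 of 24 lower in osteogenic day 15 cells. Itgad and Itgax are among the 8 higher members in adipogenic cells, and their rise was partly fixed by the filter. Each rise or fall from day 0 described next held in all 3 rescalings, and Nid1 is given by its levels only.

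Of the alpha chains, Itga6 was higher in adipogenic cells, with 71.2, 67.3 and 69.4 RPKM, against 5.64, 5.48 and 3.64 RPKM in day 0 vehicle cells (log2 difference 3.59 ± 0.11, adjusted p = 1.35e-17). It was also higher in osteogenic day 7 cells, with 9.12, 9.89 and 9.47 RPKM against the same day 0 values, by 0.84 ± 0.11. None of these groups overlapped with day 0 vehicle cells. With VD3-treated libraries in place of vehicle libraries, however, the osteogenic day 7 difference of Itga6 was -0.13, and it was -0.12 against the lone day 0 library with low background. Itgad and Itga7 rose in adipogenic cells over day 0 values of 0.753, 0.665 and 0.690 RPKM for Itgad and 0.557, 0.563 and 1.08 RPKM for Itga7, with log2 differences of 3.53 and 2.79. For Itgad this is a description, because it passed the filter only through adipogenic libraries. Itga5 rose in osteogenic cells, with means of 3.22 RPKM on day 0, 5.66 RPKM on day 7 and 5.99 RPKM on day 15, while it averaged 1.36 RPKM in adipogenic cells. Itga11 averaged 7.49 RPKM on osteogenic day 7 and 5.29 RPKM on day 0 and rose. Itgav averaged 29.6 RPKM in adipogenic cells, against 108.5 RPKM in day 0 vehicle cells, and was lower. In the osteogenic series Itgav averaged 108.5 RPKM on day 0, 104.7 RPKM on day 7 and 55.1 RPKM on day 15, and the day 15 difference from day 0 was -0.96.

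Itgb5 was lower in adipogenic cells, with 13.3, 13.7 and 13.1 RPKM, against 66.7, 68.4 and 56.4 RPKM in day 0 vehicle cells (log2 difference -2.17), and the groups lay apart. Itgb3, the β3 chain of the vitronectin receptor, averaged 0.598 RPKM in adipogenic cells and 4.74 RPKM on day 0 and fell there too. Itgb1 had means of 536.2 RPKM on day 0 and 750.4 RPKM on osteogenic day 7, where it rose by 0.48. With VD3-treated libraries in place of vehicle libraries the difference of Itgb1 was 0.15, no longer called, and against the lone low-background day 0 library it was 0.04.

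Lama1 and Lama4 moved in opposite directions over the osteogenic series. Lama1 had 15.99, 15.6 and 15.1 RPKM on day 0, 6.96, 4.64 and 6.87 RPKM on day 7 and 1.24, 1.80 and 1.47 RPKM on day 15, with log2 differences from day 0 of -1.23 and -2.73. Lama4 had 1.54, 1.85 and 1.61 RPKM on day 0, under the background of that group, 7.88, 7.22 and 9.38 RPKM on day 7 and 12.8, 17.5 and 17.1 RPKM on day 15, with log2 differences of 1.77 and 2.65. For both genes the libraries of each day lay apart from those of the other days. In adipogenic cells Lama4 rose by 3.21 on the log2 scale and Lama1 fell. Lama1 took 67.2% ± 2.1 of laminin alpha RPKM on day 0 and Lama4 7.22% ± 0.75 (SD, n = 3), and after background subtraction Lama1 took 100% there. Lamb1 rose in all 3 states over its day 0 values of 74.3, 70.4 and 66.3 RPKM, by 0.72 on osteogenic day 7 and 0.77 on osteogenic day 15. With VD3-treated libraries in place of vehicle libraries the differences of Lamb1 were 0.22 and 0.09, no longer called, and against the lone day 0 library they were 0.01 and -0.12. Lamc1 rose in adipogenic cells. Nid2 was lower in adipogenic cells, with 2.10, 2.36 and 2.44 RPKM, against 22.9, 24.9 and 23.4 RPKM in day 0 vehicle cells (log2 difference -2.91), and fell by 1.75 on osteogenic day 15. Nid1 averaged 76.7 RPKM on day 0, 98.7 RPKM on day 7 and 49.1 RPKM on day 15.

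**Figure D4:**
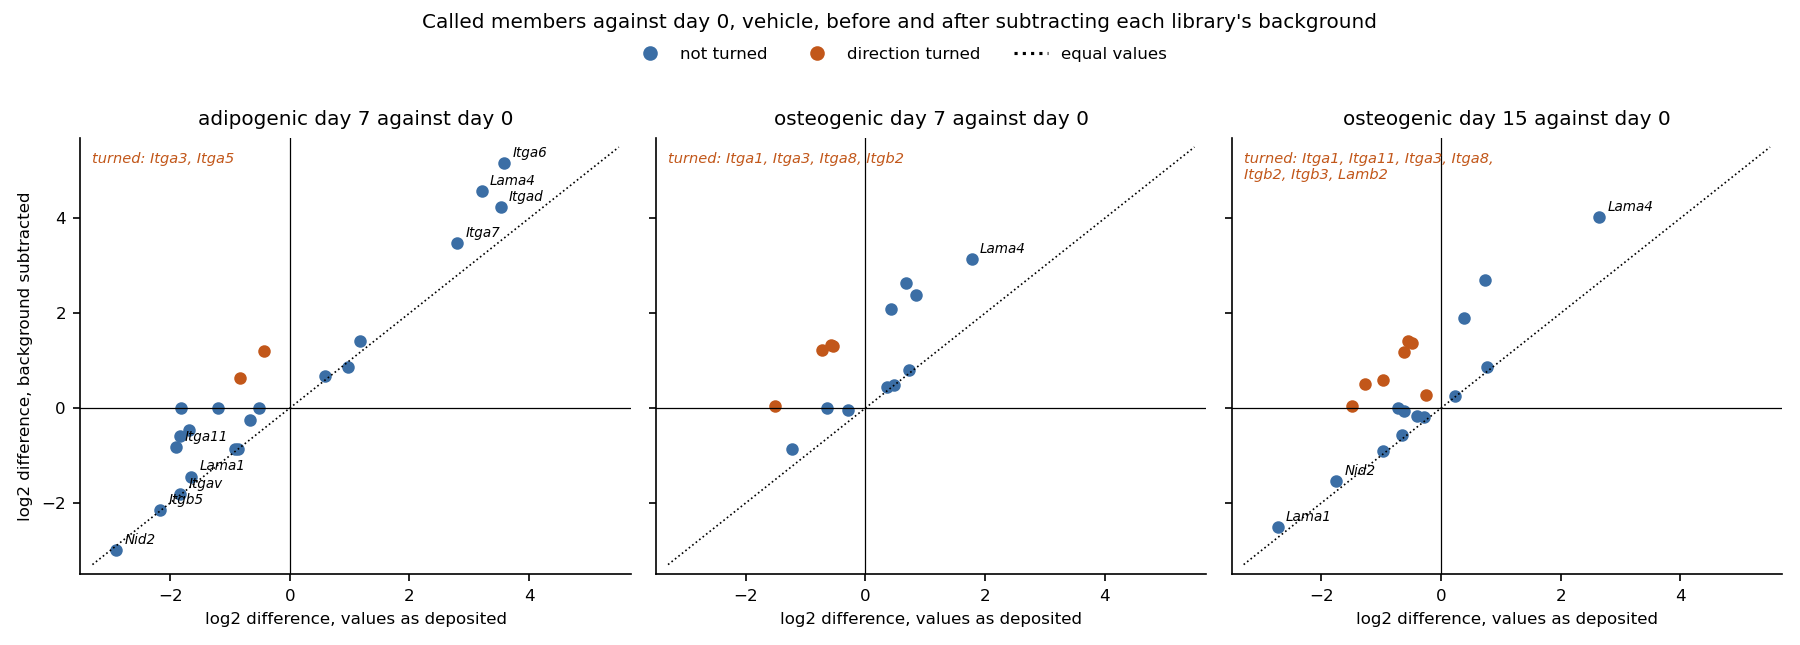
Log2 difference from day 0 vehicle cells of the called members as deposited (horizontal axis) and after subtraction of each library's background (vertical axis), 1 panel for each state. Members whose sign turned are listed in the panels: 2 of the 22 drawn in adipogenic cells, 4 of 14 on osteogenic day 7 and 7 of 20 on osteogenic day 15.

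With VD3 the α6 chain and the laminin chains Lamb1, Lamc1 and Lama5 rose in undifferentiated cells, and the αv, α11 and β5 chains fell. None of these falls stayed called in all 3 rescalings. On day 0, 4 members rose and 9 fell of 34 with VD3 (15.0% of all genes passed, 3.98% higher and 11.0% lower), and the median log2 difference was -0.38 for the members and -0.27 for all genes. Itga6 had 10.3, 10.2 and 10.1 RPKM with VD3, against 5.64, 5.48 and 3.64 RPKM with vehicle (log2 difference 0.94 ± 0.11, adjusted p = 1.68e-06). Lamb1 had 107.3, 133.7 and 108.2 RPKM with VD3, against 74.3, 70.4 and 66.3 RPKM with vehicle (log2 difference 0.71 ± 0.09, adjusted p = 9.32e-06). Lamc1 rose by 0.35, and Lama5, an alpha chain common in adult basement membranes, had 5.13, 4.36 and 4.18 RPKM with VD3, against 1.80, 2.13 and 1.97 RPKM with vehicle (log2 difference 0.90, adjusted p = 0.000846). For Itga6, Lamb1 and Lama5 every VD3 library lay above every vehicle library, including VD3 replicate 2 with its low background. Itga6, Lamb1 and Lamc1 stayed called in all 3 rescalings, and Lama5 did not pass the filter after background subtraction.

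Of the 9 lower members of day 0, none stayed called in all 3 rescalings. Itgav had 74.4, 82.9 and 67.9 RPKM with VD3, against 113.3, 111.5 and 100.8 RPKM with vehicle (log2 difference -0.53 ± 0.08, adjusted p = 4.55e-05). Itgb5, its partner, had 44.9, 45.5 and 41.3 RPKM with VD3, against 66.7, 68.4 and 56.4 RPKM with vehicle (log2 difference -0.53 ± 0.10, adjusted p = 0.000710). Groups did not overlap for either chain, and with median-ratio rescaling both differences were -0.28, with adjusted p-values of 0.203 for Itgav and 0.201 for Itgb5. Lama1 had 9.36, 10.1 and 8.96 RPKM with VD3, against 15.99, 15.6 and 15.1 RPKM with vehicle (log2 difference -0.66 ± 0.13, adjusted p = 0.00119, and 0.0950 with median-ratio rescaling). Itga11 had 2.65, 2.71 and 2.46 RPKM with VD3, against 5.14, 5.69 and 5.06 RPKM with vehicle (log2 difference -0.80 ± 0.14, adjusted p = 0.000343, and 0.528 after background subtraction). For both genes every VD3 library again lay below every vehicle library. Itgb3 had 2.29, 0.847 and 1.36 RPKM with VD3, against 4.69, 4.41 and 5.12 RPKM with vehicle (log2 difference -1.24, adjusted p = 3.46e-05, and 0.188 after background subtraction). Itgb8, Itga9, Lamb3 and Nid2 fell as well, by 0.44 to 0.77 on the log2 scale. The background was 4.45, 0.457 and 3.39 RPKM in the VD3 libraries and 4.17, 3.51 and 4.94 RPKM in the vehicle libraries, and its part in these falls beyond the subtraction was not tested. Without VD3 replicate 2, the low-background library, 9 members were called, and without VD3 replicate 1, 19. The shares of all genes called in these fits are not given, so neither count is read as a result about the members.

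On osteogenic day 7, VD3 gave 1 higher and 3 lower members of 34 (5.26% of all genes passed, 2.91% higher and 2.35% lower). Itgav had 76.2, 88.7 and 80.8 RPKM with VD3, against 102.8, 105.6 and 105.7 RPKM with vehicle (log2 difference -0.35 ± 0.08, adjusted p = 0.00584). Itga11 had 4.86, 5.72 and 3.64 RPKM with VD3, against 6.92, 6.89 and 8.65 RPKM with vehicle (log2 difference -0.57 ± 0.14, adjusted p = 0.0134). Lamc1 had 40.0, 32.0 and 36.5 RPKM with VD3, against 26.6, 25.0 and 28.4 RPKM with vehicle (log2 difference 0.42 ± 0.10, adjusted p = 0.00981). The groups did not overlap for these 3 genes, nor for Itgb8, which had 2.33, 2.67 and 2.01 RPKM with VD3, against 4.14, 4.40 and 5.52 RPKM with vehicle (log2 difference -0.77 ± 0.20, adjusted p = 0.0221). Without vehicle replicate 2, vehicle replicate 3, VD3 replicate 1 or VD3 replicate 3, 2 members were called, and a fit on the 6 libraries alone called none. Shares of all genes are not given for these fits either. None of the 4 members stayed called in all 3 rescalings.

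On osteogenic day 15 no member was called by limma (0.773% of all genes passed, 0.526% higher and 0.246% lower), and none was called under any of the other settings or with any library left out. At an unadjusted p below 0.05 there were 3, and the share of all genes at that threshold was not taken, so no difference is read from them. Itgb8 averaged 2.54 RPKM with VD3 and 4.59 RPKM with vehicle, Itgb3 averaged 1.83 and 2.76 RPKM, and Lama1 averaged 1.03 and 1.501 RPKM. Itgav averaged 49.5 ± 2.76 RPKM with VD3 and 55.1 ± 1.17 RPKM with vehicle (SD, n = 3 each).

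In adipogenic day 7 cells VD3 raised 1 member and lowered none (2.08% of all genes passed, 1.51% higher and 0.574% lower). Itga8, the α8 chain known for binding nephronectin and osteopontin, had 3.48, 3.94 and 3.71 RPKM with VD3, against 0.589, 0.431 and 0.686 RPKM with vehicle. Every VD3 library lay above every vehicle library (log2 difference 1.59 ± 0.20, adjusted p = 2.11e-05), and the call held in all 14 alternative settings, with log2 differences from 1.52 to 2.53. Its level stayed under the 5 RPKM asked of genes listed by library, so it was chosen for this description after its values were seen. In the other states Itga8 had 4.65, 2.84 and 3.00 RPKM with VD3, against 3.35, 1.94 and 2.67 RPKM with vehicle on day 0, and means of 0.752 RPKM with VD3 and 0.278 RPKM with vehicle on osteogenic day 7. These groups overlapped on day 0 but not on osteogenic day 7, and neither difference was called (adjusted p = 0.294 and 0.265). The printed Itga8 promoter window held none of the hexamers searched. Itga6 had 83.8, 76.6 and 89.9 RPKM with VD3, against 71.2, 67.3 and 69.4 RPKM with vehicle in adipogenic cells, and was not called although the groups did not overlap.

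**Figure D5:**
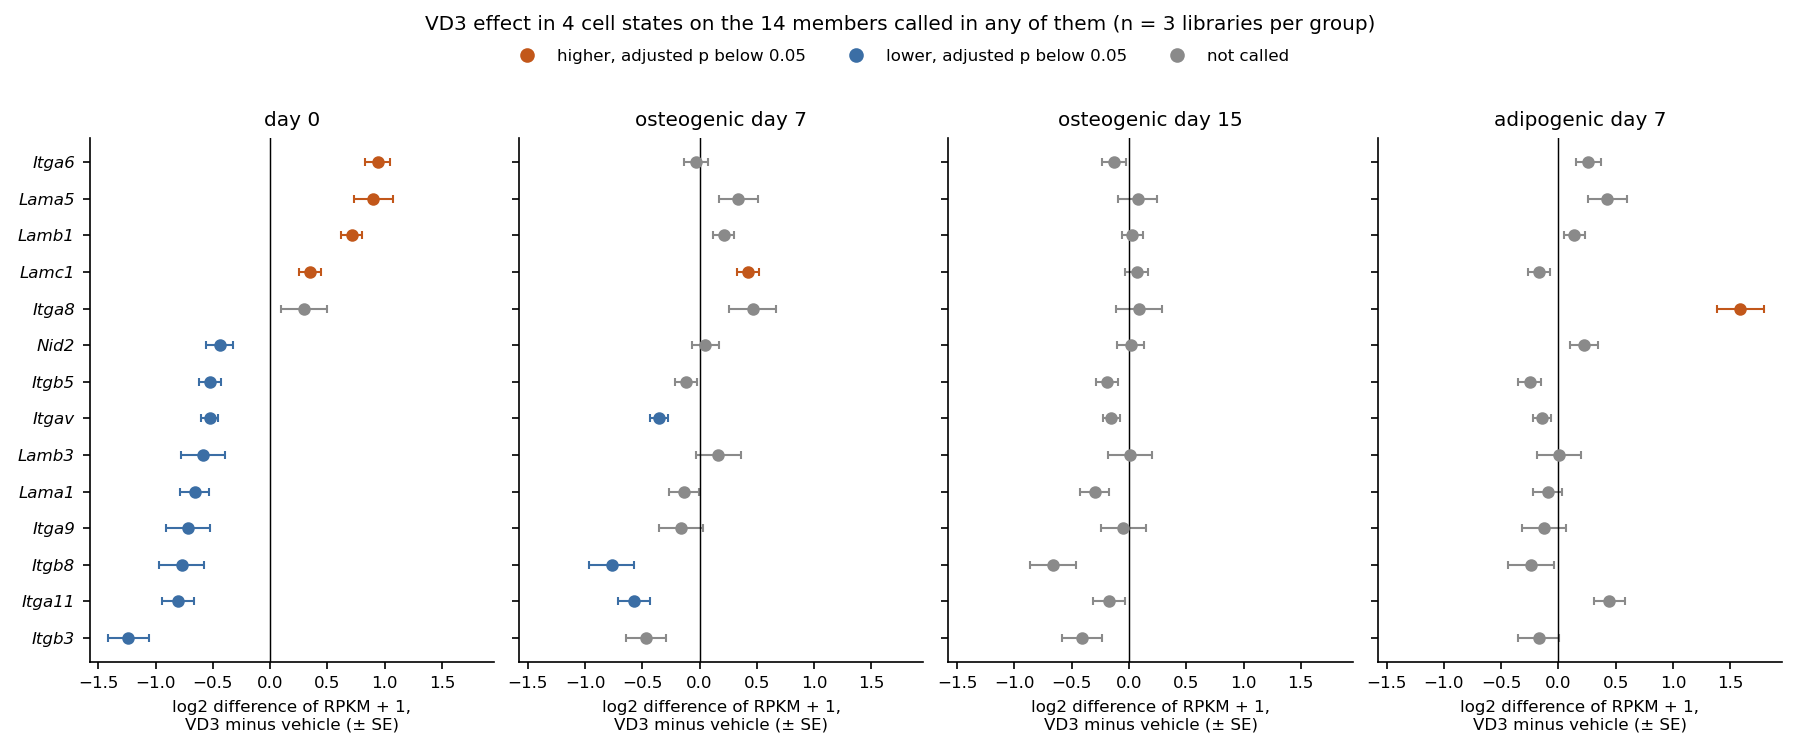
Log2 difference between VD3 and vehicle cells, with bars of 1 standard error, for the 14 members called in at least 1 state, 1 panel each for day 0, osteogenic day 7, osteogenic day 15 and adipogenic day 7. Itgav, Itga11, Itgb8 and Lamc1 were called on day 0 and osteogenic day 7, and Itga8 in adipogenic cells.

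Genes that act beside the family also moved with VD3. The matrix peroxidase Pxdn, which crosslinks type IV collagen, averaged 38.9 RPKM with VD3 and 11.2 RPKM with vehicle on day 0, 33.8 and 17.5 RPKM on osteogenic day 7, and 16.6 and 5.14 RPKM in adipogenic cells. Smoc2 averaged 63.8 RPKM with VD3 and 25.9 RPKM with vehicle on day 0 and 10.2 and 1.29 RPKM in adipogenic cells. Over all genes tested, 3.98% were higher and 11.0% lower with VD3 on day 0, 2.91% and 2.35% on osteogenic day 7, 0.526% and 0.246% on osteogenic day 15, and 1.51% and 0.574% in adipogenic cells. Of 18 tested basement membrane partners, VD3 raised 5 and lowered 2 on day 0, raised 3 on osteogenic day 7, none on osteogenic day 15 and 3 in adipogenic cells, and it lowered none in these 3 states. Among 23 secreted ligands it raised 2 and lowered 13 on day 0, raised 2 and lowered 10 on osteogenic day 7, raised 1 and lowered 7 on osteogenic day 15, and raised 3 and lowered 8 in adipogenic cells. Osteopontin (Spp1), a ligand of αv and α8 integrins, rose in all 4 states, with 266.2 RPKM with VD3 and 133.8 RPKM with vehicle in adipogenic cells. Ibsp, another RGD ligand, fell in all 4 states, to 3.23 RPKM with VD3 against 104.3 RPKM with vehicle in adipogenic cells. Adhesion complex genes numbered 3 higher and 9 lower of 28 on day 0, and 2 higher and 2 lower on osteogenic day 7. None was called on osteogenic day 15, and 2 were higher and none lower in adipogenic cells. Nedd9, a docking protein of focal adhesions, was at 42.8 RPKM with VD3 and 27.4 RPKM with vehicle on day 0. In the dystrophin-glycoprotein complex the syntrophin Sntb2 rose in all 4 states, with 80.5 RPKM with VD3 and 39.7 RPKM with vehicle on day 0. Marker sums of the states moved with VD3 as well, and their part in the integrin results was not tested. Osteoblast markers summed to 18.99 to 21.1 RPKM with VD3 and 31.3 to 39.0 RPKM with vehicle on day 0. On osteogenic day 7 they summed to 336.8 to 378.3 RPKM with VD3 and 547.9 to 571.8 RPKM with vehicle. The sums on osteogenic day 15 were 338.8 to 369.7 RPKM with VD3 and 680.1 to 757.6 RPKM with vehicle. In adipogenic cells they were 26.8 to 34.4 RPKM with VD3 and 124 to 146 RPKM with vehicle. Ibsp, whose fall is given above, is among these markers and made up most of the adipogenic and osteogenic day 15 sums with vehicle.

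Whether the response to VD3 differed between states was tested as a difference of differences. Between adipogenic cells and day 0, 7 members differed (3.47% of all genes passed, 2.46% higher and 1.01% lower), 4 with a higher and 3 with a lower value in adipogenic cells, among them Itga11 (1.25 ± 0.20, adjusted p = 0.000502), where VD3 libraries had 1.42, 1.19 and 1.29 RPKM against 0.481, 0.724 and 0.889 RPKM with vehicle in adipogenic cells, and 2.65, 2.71 and 2.46 RPKM against 5.14, 5.69 and 5.06 RPKM on day 0. After background subtraction this difference of Itga11 was 0.66 (adjusted p = 0.512). Between adipogenic and osteogenic day 7 cells 3 members differed (1.82% of all genes, 0.967% higher and 0.853% lower). Itga8 and Itga11 had a higher and Lamc1 a lower value in adipogenic cells. Itga11 and Lamc1 did not stay called in all 3 rescalings, and the call of Itga8 was lost in 20 of 32 alternatives. Between osteogenic day 7 and day 0, 2 members differed (2.55% of all genes, 1.85% higher and 0.702% lower), Itga6 and Lamb1, both with a smaller value on osteogenic day 7. Itga6 had 8.97, 9.30 and 9.54 RPKM with VD3, against 9.12, 9.89 and 9.47 RPKM with vehicle on osteogenic day 7, which overlapped. Between osteogenic day 15 and day 7 no member differed by limma (0.185% of all genes passed, 0.0521% higher and 0.133% lower). There were 5 at an unadjusted p below 0.05, where the share of all genes was not taken, so no difference is read from them.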

How the data were processed

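Per the labels' protocols, the libraries are strand-specific and were made from DNase-treated RNA from which ribosomal RNA had been removed. The submitters' processing notes name TopHat and the mouse build mm9; the counting tool and annotation are not given in the sources used here. The authors deposited 1 table of RPKM per library, with 30795 transcripts under 25410 symbols. Here 40 transcripts whose symbols had turned into dates (25 symbols) were left out, transcripts of a symbol were summed, and log2(RPKM + 1) was fitted with limma 3.58.1 in R 4.3.3 (8-group model, trend and robust variance, 24 libraries) over 21097 genes with at least 1 RPKM in 3 or more libraries. A call is a Benjamini-Hochberg adjusted p below 0.05 over all these genes. With 3 libraries against 3, an exact permutation test of a single gene cannot go below 0.1, so none was used. No identical libraries were found, and libraries of a group correlated across genes at 0.923 to 0.993.

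Depth was estimated from 150 low values a library, of which 72.7% to 86.0% lay within 0.1 of a whole read; counting error alone is covered. Background is the median RPKM of 1494 sensory receptor genes. The fit was checked on simulated data.

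A member is given by library when its mean is at least 5 RPKM in a compared group and it is among the 6 called members with the largest change (3 for differences between VD3 effects); of each list, the 2 largest called genes in each direction are eligible. Where Itgav, Itgb1, Lama4, Dag1, Itga8, Itgb3, Itgb8, Lama5 or others go beyond this rule, they were chosen after their values were seen. Members, lists and ligand groups were chosen with earlier results of these data known. Alternatives covered the pseudocount, the filter, 2 rescalings, background subtraction, the largest transcript, the replicate block, a narrower fit, VD3-treated libraries in place of vehicle ones and leaving out each library. Promoters came from a RefSeq table of GRCm38.p6, and no coordinates of the mm9 files were used. Of the members, 1 is counted in the totals and its values are not reported here.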

Additional observations from a re-analysis of the deposited data

Results flagged for a closer look

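The effect of VD3 differed between states for 7 member genes, in 12 values, by a test of the difference itself (limma on all 24 libraries, adjusted over all genes). Values are differences of log2 differences, the first state minus the second. The comparisons with day 0 share the day 0 libraries.

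Osteogenic day 7 was set against day 0 first. For Itga6 the difference was -0.97 ± 0.15 (adjusted p = 0.000719), with VD3 effects of -0.03 on osteogenic day 7 and 0.94 on day 0. For Lamb1 it was -0.50 (adjusted p = 0.0427), with effects of 0.21 and 0.71, and the call was lost in 20 of 33 alternatives.

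Adipogenic day 7 against day 0 gave 7 values. Itga6 differed by -0.68 (adjusted p = 0.0126) and Lamb1 by -0.57 (adjusted p = 0.0143), both with the smaller effect in adipogenic cells. Lamc1 differed by -0.52 (adjusted p = 0.0390), a call lost in 13 of 33 alternatives. Itga8 differed by 1.29 (adjusted p = 0.0120), with effects of 1.59 in adipogenic cells and 0.30 on day 0, a call lost in 3 of 32 alternatives. Itga11 differed by 1.25 (adjusted p = 0.000502), Itgb3 by 1.07 (adjusted p = 0.0182) and Nid2 by 0.66 (adjusted p = 0.0281, lost in 10 of 33 alternatives), each with a call below 0 on day 0 and none in adipogenic cells. The call of Itga11 was lost in 2 of 33 alternatives, and after background subtraction the difference was 0.66 (adjusted p = 0.512). The call of Itgb3 was lost in 6 of 32 alternatives, and after background subtraction the difference was 0.43 (adjusted p = 0.451).

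Adipogenic day 7 against osteogenic day 7 gave 3 values, and here both states have lower background than day 0 vehicle cells. Itga8 differed by 1.13 (adjusted p = 0.0437), a call lost in 20 of 32 alternatives. Itga11 differed by 1.02 (adjusted p = 0.00532), with effects of 0.45 in adipogenic cells and -0.57 on osteogenic day 7. That call was lost in 3 of 33 alternatives, among them background subtraction (adjusted p = 0.672) and quantile normalization (adjusted p = 0.191). The call of the osteogenic day 7 effect was lost in 6 of 15. In adipogenic VD3 cells Itga11 averaged 1.30 RPKM, close to the background of 1.13, 1.30 and 0.495 RPKM in these libraries. Lamc1 differed by -0.59 (adjusted p = 0.0247), a call lost in 8 of 33 alternatives.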

How the results depend on the processing

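Over the settings tried, 997 values of single members kept direction and side of the threshold, 150 kept direction only and 4 turned. Shares of single chains in their class were recomputed with the largest transcript and after background subtraction. Of these values, 52 stayed within 1 SD of the main share and 28 moved further. The counts of called members moved by more than 1.5 times in 27 cases and less in 149. Given as called members of the main setting's 31, 22 and 29 against day 0 (adipogenic, osteogenic day 7, osteogenic day 15), 23 adipogenic against osteogenic day 7, 13, 4 and 1 for VD3 on day 0, osteogenic day 7 and adipogenic day 7, and 12 differences of VD3 effects, those counts were as follows. A pseudocount of 0.1 gave 2 for VD3 on osteogenic day 7 and 2 in adipogenic cells. A filter at 5 RPKM left 17 members to test and gave 15, 11 and 16 against day 0, 15 between adipogenic and osteogenic day 7 cells and 8 for VD3 on day 0. Median-ratio rescaling gave 7 for VD3 on day 0 and 2 on osteogenic day 7, and quantile normalization gave 2 there. Background subtraction, with 25 members left to test, gave 17 in adipogenic and 16 in osteogenic day 15 cells against day 0, 7 and 2 for VD3 on day 0 and osteogenic day 7, and 6 differences. A fit on the compared libraries alone gave 6 and 0 for VD3 on day 0 and osteogenic day 7, and 5 differences. VD3-treated libraries in place of vehicle ones gave 13 and 14 for osteogenic day 7 and day 15 against day 0. With day 0 VD3 replicate 2, chosen after seeing the data, as the lone day 0 library, these counts were 9 and 11; the lone sample is then assumed to vary like the other groups. Shares over all genes are not given for these settings, nor for the fits described below, so these counts describe the processing only. Beyond the fewer members tested, the cause was not tested.

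Turned values were Itga11 on osteogenic day 15 against day 0, at 0.59 after background subtraction, Itga6 on osteogenic day 7 against day 0, at -0.13 with VD3-treated libraries and -0.12 with the lone day 0 library, and Lamb1 on osteogenic day 15, at -0.12 with that library. The cause was not tested.

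Leaving out each library in turn gave 29 to 31, 20 to 22 and 25 to 28 members against day 0, 20 to 23 between adipogenic and osteogenic day 7 cells, 10 to 12 between osteogenic days, 9 to 19, 2 to 4, 0 to 0 and 1 to 2 for VD3 on day 0, osteogenic day 7, osteogenic day 15 and adipogenic day 7, and 8 to 15 differences. The extremes of VD3 on day 0 were 9 without VD3 replicate 2 and 19 without VD3 replicate 1; 8 differences were called without osteogenic day 7 vehicle replicate 1, adipogenic vehicle replicate 1 or 2 or adipogenic VD3 replicate 2.

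With the replicate number as a block, 31, 21 and 29 members were called against day 0, 23 between adipogenic and osteogenic day 7 cells, 10 between osteogenic days, 12, 4, 0 and 1 for VD3 and 10 differences. Same-numbered libraries deviated together by more than 0.1 in 13 of 84 pairs, with correlations from -0.352 to 0.444, so the numbers are taken to name libraries only. Depth limits the lowest members: in the 5 day 0 libraries with high background 3 reads on 1 kb are worth 0.273 to 0.421 RPKM.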

Other observations

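The partner lists were also set against day 0 vehicle cells. Of 23 secreted integrin ligands tested, 4 rose and 17 fell in adipogenic day 7 cells, where 13.2% of all genes were higher and 65.5% lower. On osteogenic day 7, 16 rose and 5 fell, beside 13.6% and 50.4% of all genes. On osteogenic day 15, 10 rose and 10 fell, beside 17.5% and 53.4%. Bone sialoprotein (Ibsp), an RGD ligand of mineralizing matrix, averaged 104.3 RPKM in adipogenic cells, and in the osteogenic series it averaged 9.55 RPKM on day 0, 263.9 RPKM on day 7 and 596.4 RPKM on day 15. Osteopontin (Spp1) averaged 133.8 RPKM in adipogenic cells and 1971.5 RPKM on day 0. Tgfbi, a secreted ligand of β1 and αv integrins, averaged 0.566 RPKM in adipogenic cells and 32.3 RPKM on day 0. These comparisons carry the day 0 background described in the report.

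Of the low members, 14 had every group mean under 5 RPKM and their highest mean in day 0 vehicle cells: Itga2, Itga4, Itga9, Itgae, Itgal, Itgam, Itgb2, Itgb3, Itgb4, Itgb6, Lama2, Lama3, Lamb3 and Lamc3. The same count was not taken over all genes, of which 50.4% to 65.5% were lower than on day 0 in the differentiated vehicle states. The 14 are therefore not read as a trait of these members. The leukocyte chain Itga4, a receptor for fibronectin and VCAM1, had 4.23, 0.517 and 3.90 RPKM in the day 0 VD3 libraries, and replicate 2, with the low background, was the lowest of them.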
